A study of Arabidopsis thaliana with 14 samples.

Results

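H3K27me3 peaks that overlap an H3K4me3 peak were described in transgenic wild type (TWT) seedlings of Arabidopsis thaliana, together with the genes under them that changed in a fen1 mutant. H3K27me3 is the histone mark laid down by Polycomb repressive complex 2, and H3K4me3 is the mark of active or poised promoters, laid down by Trithorax-type methyltransferases. A peak of both marks on one stretch of DNA is often called bivalent. In material of many cell types it can come from 1 chromosome that carries both marks or from cells that carry one mark each, and peak lists of whole seedlings cannot tell these apart. FEN1, the gene mutated in fen1, encodes flap endonuclease 1, which removes 5′ flaps from DNA during replication and repair.

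Members were chosen by position alone, as the peaks of the TWT H3K27me3 list on chromosomes 1 to 5 that shared at least 1 bp with a peak of the TWT H3K4me3 list. There were 808 of them among 9201 H3K27me3 peaks (8.78%, exact Clopper-Pearson 95% interval 8.21 to 9.38%, covering counting error only). They were thus selected on the peak positions of both lists, and overlap, width, position and score are given as description, without a test. Seedlings were whole, 10 days old and of ecotype C24, grown on sucrose plates without further treatment, and both genotypes share that background. The fen1 mutant was compared with TWT by RNA sequencing of 2 libraries each, and TWT chromatin was taken from 1 library each for H3K27me3, H3K4me3 and H3K9me2, the mark of silent heterochromatin. The labels name neither the fen1 allele nor the transgene of TWT, and do not say whether the fen1 line carries that transgene too. Chromatin of fen1, H3 and input libraries were not analysed here, and the marks are those of TWT alone. Read depth is unknown from these files. The RNA table held 1 value per genotype, taken from its layout to be FPKM (fragments relative to transcript length and library size), so no SD stands beside a level.

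The 808 members met 795 of the 15504 H3K4me3 peaks (5.13%, 4.79 to 5.49%), since 12 members touched 2 H3K4me3 peaks and 25 H3K4me3 peaks touched 2 members. The stretches under both marks summed to 0.662 Mb. That was 48.9% of the bases of the members, 4.35% of all H3K27me3 bases and 2.87% of all H3K4me3 bases.

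Chloroplast DNA, which is not packaged in histones, also held peaks of both lists, although the rule left it out. Of 38 H3K27me3 peaks there, 28 overlapped one of 36 H3K4me3 peaks (73.7%, exact 95% interval 56.9 to 86.6%). The H3K27me3 scores had a median of 157 for the nuclear members, and on the chloroplast a median of 124 and a maximum of 709. What part of the nuclear overlap comes from signal of the kind seen on the chloroplast was not tested.

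The shared length of a member had a median of 824 bp, with quartiles of 322 and 1143 bp and a range of 2 to 3667 bp. As a share of the H3K27me3 peak the median was 76.0%. At one end 258 members were wholly covered by H3K4me3, and at the other 155 shared under 10% of their length. At least 1000 bp was shared by 284 members and at least 2000 bp by 16. The labels give chromatin fragments of about 300 bp, and 197 members shared less than that.

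The arrangement of the peaks fell into 4 forms. In 481 members (59.5%) the edges of an H3K27me3 and an H3K4me3 peak overlapped, with a median of 641 bp shared out of 1679 bp. In 258 members (31.9%) the H3K27me3 peak lay inside the H3K4me3 peak. These were short and weak H3K27me3 peaks, with a median width of 911 bp and a median score of 89.6, on a list whose lowest score was 50. The H3K4me3 peaks around them had a median width of 1294 bp, so the form itself limits the width of the member. In 57 members (7.05%) the H3K4me3 peak lay inside the H3K27me3 peak, and there the weak partner was H3K4me3, with a median score of 104 beside an H3K27me3 median of 404. The 12 members with 2 H3K4me3 peaks had a median width of 2557 bp. With all forms pooled, shared length varied little with the width of the member (Pearson's r = 0.10, Spearman's rho = 0.14 over 808 peaks of the same libraries). In the 258 members inside an H3K4me3 peak, shared length equals width by definition.

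**Figure D1:**
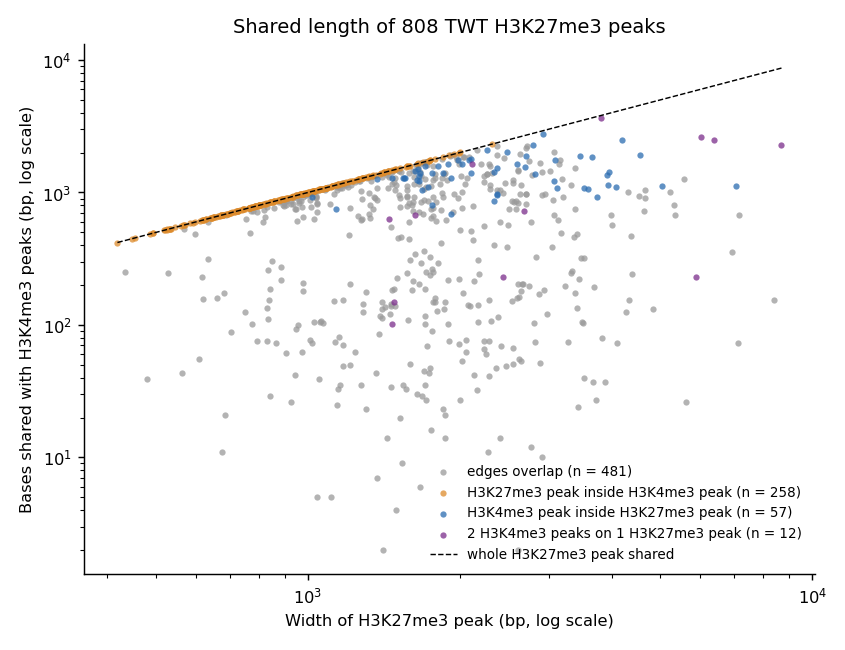
Bases shared with H3K4me3 peaks (bp, log scale) against the width of the H3K27me3 peak (bp, log scale), 1 point per member, coloured by arrangement; the dashed line marks a wholly shared peak. The 258 peaks inside an H3K4me3 peak lie on the line, and the 481 edge overlaps spread from 2 bp upwards.

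Members and other H3K27me3 peaks had like widths, with medians of 1431 bp for the 808 members and 1345 bp for the other 8393. The scores, the authors' own value per peak, had a median of 157 for members and 123 for other H3K27me3 peaks. The share of H3K27me3 peaks that were members was 6.89% in the lowest 20% by score (127 of 1842, exact 95% interval 5.78 to 8.15%) and 10.3% in the highest 20% (189 of 1840, 8.92 to 11.8%). By width it ran from 6.40% in the narrowest 20% to 10.3% in the next class, with 8.59% in the widest 20%.

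The H3K4me3 partners were weak for their list. Their scores had a median of 364, with quartiles of 153 and 920, against a median of 1248 for the H3K4me3 peaks that met no H3K27me3. In the lowest 20% of H3K4me3 peaks by score 14.1% were partners (436 of 3101, exact 95% interval 12.9 to 15.3%), and in the highest 20% 1.52% (47 of 3101, 1.12 to 2.01%). A single value, 3100, was the score of 1140 H3K4me3 peaks, 11 of them partners, so the score does not rank these among themselves. Widths differed less, with medians of 1321 bp for partners and 1374 bp for the rest. Within members the 2 scores were nearly unrelated (Pearson's r = −0.05, Spearman's rho = −0.07 over the 796 members with 1 partner). No more than 83 members had both peaks at or above the median score of their own list (125 for H3K27me3, 1204 for H3K4me3), and those shared a median of 171 bp, with 58 of the 83 under the fragment length of 300 bp.

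**Figure D2:**
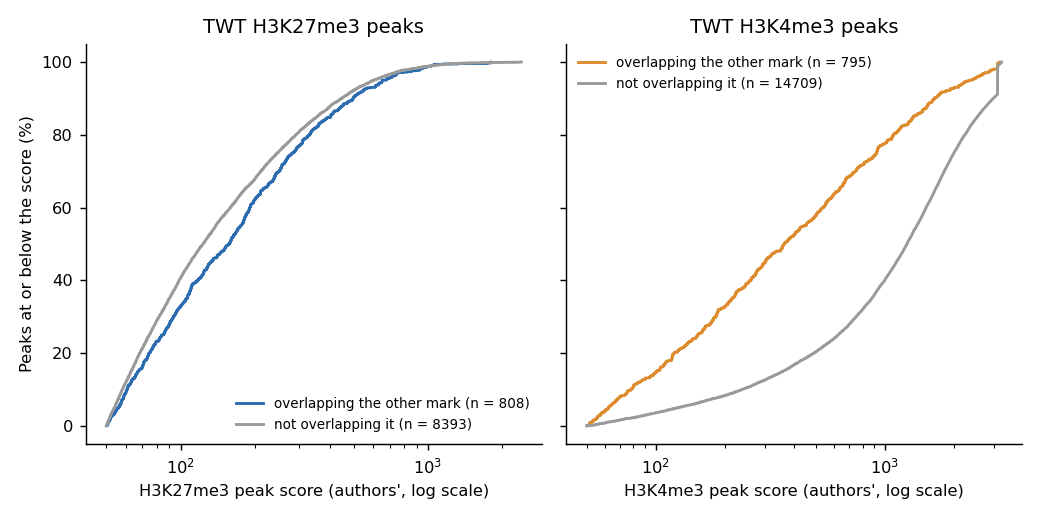
Cumulative share of peaks (%) by the authors' peak score (log scale), with H3K27me3 peaks on the left and H3K4me3 peaks on the right; coloured lines are peaks that overlap the other mark and grey lines those that do not. The lines lie close for H3K27me3 (medians 157 and 123) and far apart for H3K4me3 (medians 364 and 1248).

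**Figure D3:**
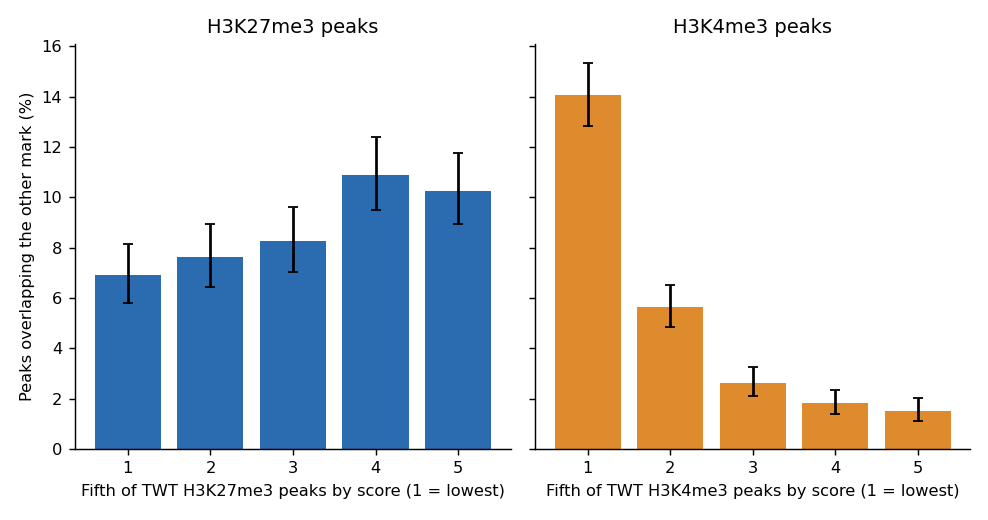
Share of TWT peaks that overlap the other mark (%), in 5 equal classes of the authors' score, for H3K27me3 peaks (left) and H3K4me3 peaks (right); bars are exact 95% binomial intervals. The share goes from 6.89 to 10.3% over the classes of H3K27me3 and from 14.1 to 1.52% over those of H3K4me3.

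The longest shared stretch belonged to a member on chromosome 1 (7439131 to 7442944, TAIR10), where 2 H3K4me3 peaks covered 3667 of its 3814 bp. Next came members on chromosome 2 (11000416 to 11003346) with 2755 bp and on chromosome 3 (3950918 to 3956924) with 2644 bp. The chromosome 3 member also had the highest H3K27me3 score of all members, 1796, beside an H3K4me3 score of 237. The widest member spanned 8689 bp on chromosome 3 (7365824 to 7374512), of which 2272 bp were shared. None of the 5 members with the longest shared stretch, the 5 widest or the 5 of highest H3K27me3 score touched a gene listed as changed in fen1. At the threshold of the rule, the shortest overlaps were 2 bp, on chromosome 2 (10315240 to 10317846) and chromosome 5 (26518081 to 26519489). Just outside it, an H3K27me3 peak on chromosome 5 (13768109 to 13773425) ended 1 bp from an H3K4me3 peak, and while 55 members shared under 50 bp, 62 peaks that were no members lay under 50 bp away.

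Members lay on all 5 chromosomes in like proportion. They made up 9.78% of the H3K27me3 peaks of chromosome 1 (231 of 2361), 8.11% on chromosome 2 (128 of 1578), 8.55% on chromosome 3 (153 of 1789), 8.63% on chromosome 4 (123 of 1426) and 8.45% on chromosome 5 (173 of 2047), and each exact 95% interval held the overall 8.78%. The median gap to the next member was 83.5 kb, and 93 of the 803 gaps were under 10 kb.

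H3K9me2 was found on few members. The rule did not use this mark, but it asked for an H3K4me3 peak, and few H3K4me3 peaks of any kind met H3K9me2. The share among members is thus not independent of the rule. An H3K9me2 peak overlapped 20 of 808 members (2.48%, exact 95% interval 1.52 to 3.80%), against 1989 of 8393 other H3K27me3 peaks (23.7%, 22.8 to 24.6%). The stretch under both H3K27me3 and H3K4me3 itself met H3K9me2 in 5 cases. Of the partner H3K4me3 peaks 6 of 795 met H3K9me2 (0.755%), and of the other H3K4me3 peaks 49 of 14709 (0.333%). With 1 library per mark these differences carry no test between samples.

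The members followed the chromosome arms. In the 24 of 121 bins of 1 Mb with the most H3K9me2, at least 15.0% of the bases in each, 42 of 2155 H3K27me3 peaks were members (1.95%, exact 95% interval 1.41 to 2.63%), against 766 of 7046 in the other bins (10.9%, 10.2 to 11.6%). Bins rich in H3K9me2 held a median of 1.5 members and the others 8, and the 7 bins without any member were all H3K9me2-rich. Seen from H3K4me3 there was little contrast, as 41 of 764 H3K4me3 peaks in the H3K9me2-rich bins were partners (5.37%) and 754 of 14740 elsewhere (5.12%).

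The genes under the members were read from the authors' deposited table, which lists 1114 genes as changed in fen1 (684 higher and 430 lower). The p and q values in it imply 20132 tested genes, of which 5.53% were called, 3.4% higher and 2.14% lower. A member overlapped the body of 81 listed genes, all protein-coding, of which 52 were higher in fen1 and 29 lower. That is 64.2% higher (exact 95% interval 52.8 to 74.6%), beside 61.4% of all listed genes 66.5% of the 331 listed genes that touched other H3K27me3 peaks alone and 51.6% of the 508 with H3K4me3 and no H3K27me3. Genes that were not called have no position in the table. How many tested genes the members touch is therefore unknown, and the 81 cannot be set against the 5.53%.

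Of the members, 84 touched a listed gene (10.4%, exact 95% interval 8.38 to 12.7%), against 416 of 8393 other H3K27me3 peaks (4.96%, 4.50 to 5.44%). Among peaks without H3K9me2 the shares were 84 of 788 members (10.7%) and 387 of 6404 others (6.04%). Of the H3K4me3 partners 79 of 795 touched a listed gene (9.94%), and of the other H3K4me3 peaks 559 of 14709 (3.80%). The members with a listed gene were not the strong ones: their median H3K27me3 score was 114, against 161 for the members without, and their median H3K4me3 score 274, against 375. Peaks differ in how much gene they cover and in the level of the genes, and the part of these in the shares was not tested.

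The median changes at the 81 genes lay near those of the whole table, and 2-fold falls were few. Over the 81 genes the log2 fold changes of the authors' deposited table had a median of 0.67 and over all listed genes one of 0.62. For the 52 higher genes it was 0.92, beside 0.95 for all higher genes, and for the 29 lower genes −0.63, beside −0.72 for all lower genes. At least 2-fold changes were found in 23 higher genes (28.4% of the 81) and 5 lower genes (6.17%). Of all 1114 listed genes 320 were at least 2-fold higher (28.7%) and 127 at least 2-fold lower (11.4%), which are 1.59% and 0.631% of all tested genes. With H3K4me3 and no H3K27me3 the shares were 13.0% higher and 7.28% lower, and with other H3K27me3 alone 43.2% higher and 20.2% lower. The lowest q-value to be found in the authors' deposited table, 0.00173, was reached by 41 of the 81 genes (50.6%) and by 52.2% of all listed genes.

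The level in TWT, also not used by the rule, lay between those of the H3K27me3 and H3K4me3 groups and near that of the whole table. The median was 15.3 FPKM in fen1 and 11.2 FPKM in TWT over the 81 genes. Over all 1114 listed genes it was 13.1 FPKM in fen1 and 10.9 FPKM in TWT. The rule asked for an H3K4me3 peak, so the level is not independent of it. Of the 331 genes with other H3K27me3 peaks alone, 14 had an H3K4me3 peak on the body. The 331 genes with other H3K27me3 peaks alone had medians of 7.97 FPKM in fen1 and 5.13 FPKM in TWT, and the 508 with H3K4me3 and no H3K27me3 22.1 FPKM in fen1 and 19.2 FPKM in TWT. Direction went with the TWT level. All 7 of the 81 genes under 1 FPKM in TWT were higher in fen1, and so were 26 of the 31 with 1 to 10 FPKM and 18 of the 30 with 10 to 100 FPKM. Of the 13 genes with at least 100 FPKM in TWT only DHAR1 was higher, and 12 were lower. Over all listed genes the same classes held 77 of 79, 340 of 457, 244 of 476 and 23 of 102 higher genes, so the order of the classes is also that of the table as a whole. A fold change holds the TWT level as its denominator, which ties the 2 quantities together.

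**Figure D4:**
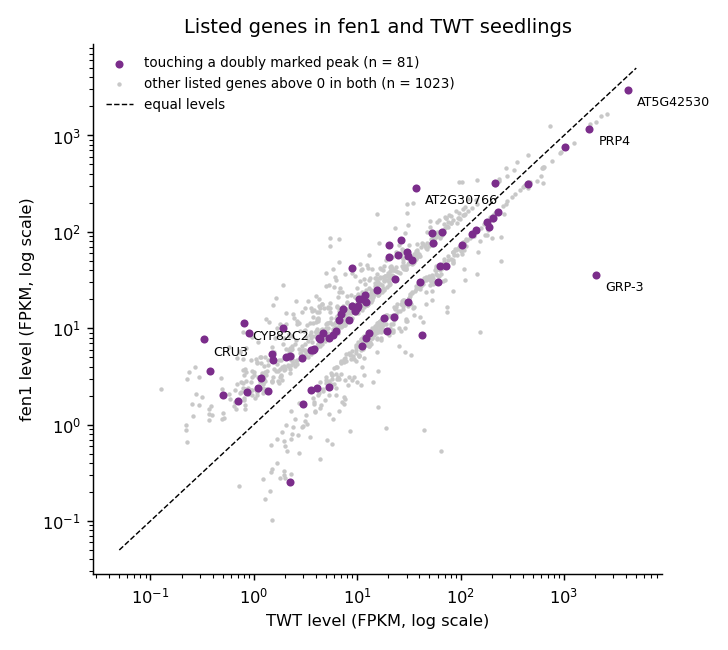
Level in fen1 against level in TWT (FPKM, log scales) for the 81 listed genes that touch a member (purple) and for the other listed genes above 0 in both genotypes (grey); the dashed line marks equal levels. CRU3 and CYP82C2 stand above the line at low TWT levels, and GRP-3 stands far below it at 35.6 FPKM in fen1 and 2033 FPKM in TWT.

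Where both marks met relative to the gene was taken from the gene's start and strand in the table. The start of 47 genes lay under both marks, that of 20 under H3K4me3 alone, that of 7 under the H3K27me3 member alone and that of 7 under neither. The midpoint of the nearest shared stretch lay a median of 588 bp downstream of the start (quartiles 362 and 860 bp), and it was downstream in 79 of the 81 genes. A member had to overlap the gene body, and in 77 genes the shared stretch did too. A midpoint downstream of the start was thus largely set by that choice. The stretch covered a median of 64.4% of the gene body, and the member itself 83.6%.

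The genes were described in 3 classes by how much of the body the shared stretch covered, with class limits set after the values were seen. At least 50% was covered in 49 genes, of which 25 were higher and 24 lower, with median levels of 22.2 FPKM in fen1 and 22.7 FPKM in TWT. From 5 to 50% was covered in 23 genes, of which 18 were higher and 5 lower, with medians of 9.99 FPKM in fen1 and 6.24 FPKM in TWT. Under 5% was covered in 9 genes, all of them higher, with medians of 7.65 FPKM in fen1 and 1.37 FPKM in TWT. In these the member itself lay on 1.63% of the body of DHAR1, 1.77% of CYP722A1 and 37.0 to 100% of the others. The median cover by the shared stretch was 42.7% in the higher genes and 90.7% in the lower ones. Across the 81 genes the cover increased with the TWT level (Spearman's rho = 0.51), but short genes were also covered more fully (rho = −0.63 with gene length). Cover of the body by H3K4me3 peaks also rose with TWT level in the 508 listed genes with H3K4me3 and no H3K27me3. Its median there was 59.99% under 10 FPKM in TWT, 84.8% from 10 to 100 FPKM and 95.8% at 100 FPKM or more. In the 77 genes under members with an H3K4me3 peak on the body it was 48.3%, 95.3% and 100%. A rise of H3K4me3 cover with level was thus not limited to genes under members.

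**Figure D5:**
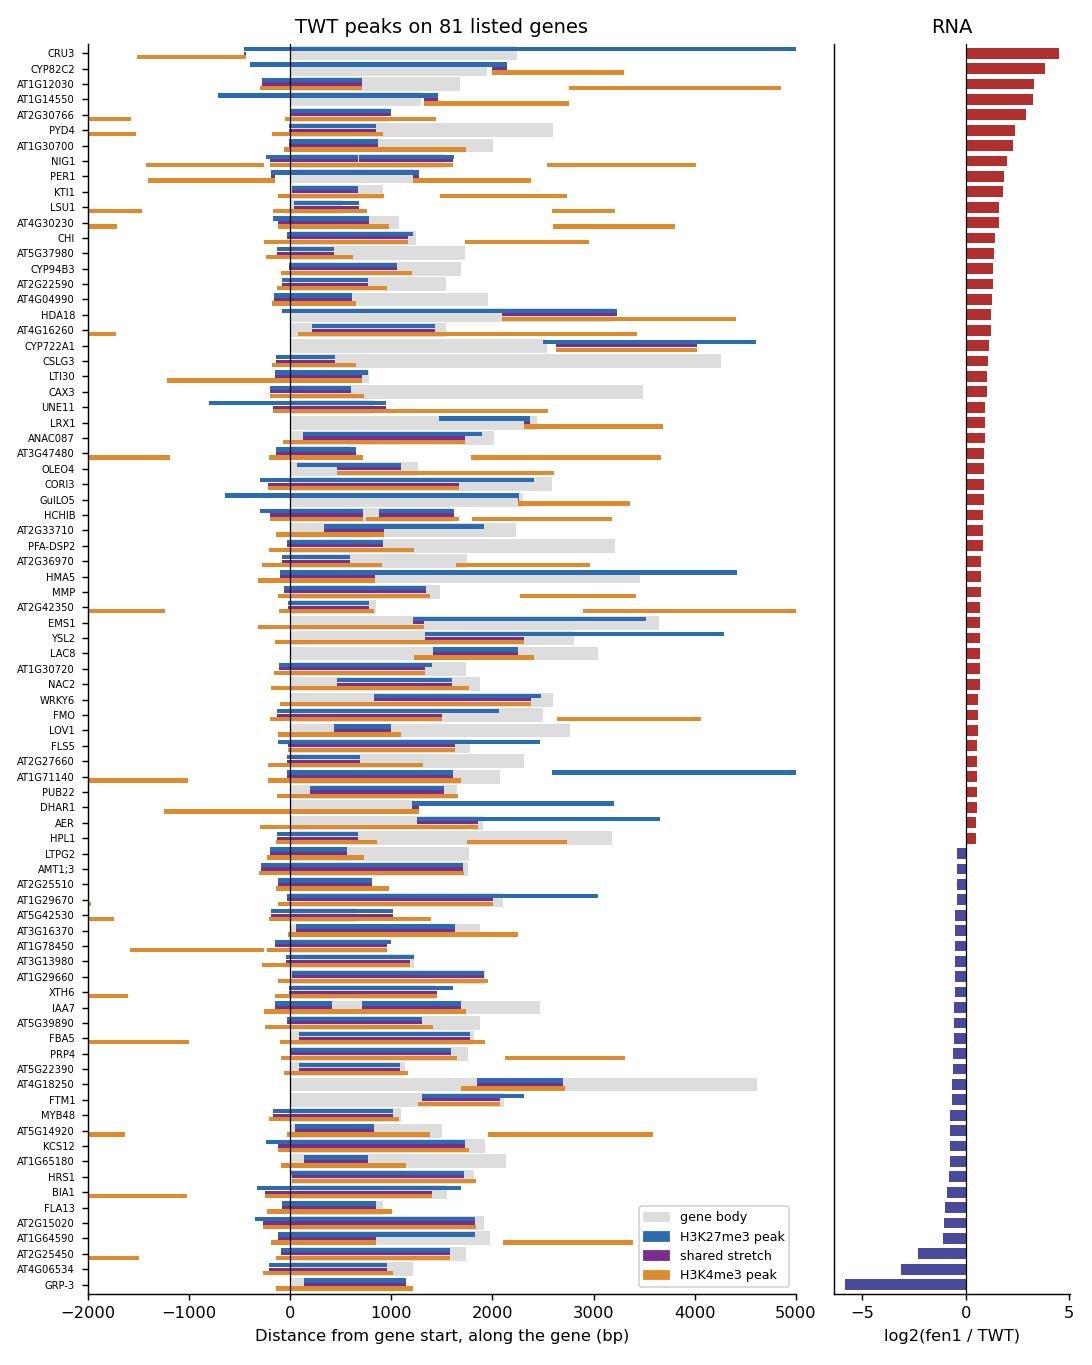
Gene bodies (grey), member H3K27me3 peaks (blue), H3K4me3 peaks (orange) and the stretch under both (purple) by distance from the gene start in bp, for the 81 listed genes from the largest rise (top) to the largest fall (bottom), with the log2 ratio of fen1 over TWT on the right; features longer than the axis run past its edge. In CRU3, CYP82C2 and AT1G14550 the purple stretch lies outside the gene, and in PRP4 and HRS1 it covers most of the gene.

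The genes that met the shared stretch only at or beyond an edge included the largest rises. CRU3 (AT4G28520, chromosome 4, 14087556 to 14089796), which encodes the seed storage protein cruciferin, was listed at 7.65 FPKM in fen1 and 0.33 FPKM in TWT (log2 4.53, q = 0.00173 in the authors' deposited table). It lay wholly under a member of 5628 bp with an H3K27me3 score of 930, and an H3K4me3 peak met that member over 26 bp, 432 bp upstream of the gene. The next protein-coding gene on that side in the reference order is PHB1, which encodes a prohibitin. CYP82C2 (AT4G31970, chromosome 4, 15462408 to 15464358), a cytochrome P450 of indole defence metabolism, had 11.2 FPKM in fen1 and 0.80 FPKM in TWT (log2 3.82, q = 0.00173 in the authors' deposited table). It was likewise wholly under H3K27me3, with a score of 1043, and the shared 151 bp began 41 bp downstream of it. The peroxidase gene AT1G14550 had 3.56 FPKM in fen1 and 0.38 FPKM in TWT (log2 3.24, q = 0.0180 in the authors' deposited table), with 141 shared bp starting 26 bp past its end. So these 3 genes carried H3K27me3 without H3K4me3 on the body, and they belong to the members through the edge of the peak. With CYP722A1 (2.42 FPKM in fen1 and 1.10 FPKM in TWT), they were the 4 genes of the 81 with no H3K4me3 peak on the body.

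PER1, a peroxiredoxin gene of seeds, had 5.42 FPKM in fen1 and 1.51 FPKM in TWT (log2 1.84, q = 0.00173 in the authors' deposited table). Its member was met by an H3K4me3 peak on either side, and 15 bp of the gene lay under both marks. GulLO5, of the D-arabinono-1,4-lactone oxidase family, had 12.1 FPKM in fen1 and 6.60 FPKM in TWT, with 10 shared bp. LRX1, an extensin-type protein of root hairs, had 17.1 FPKM in fen1 and 8.88 FPKM in TWT, with 61 shared bp at its 3′ end. EMS1, a receptor kinase of anther development, had 2.23 FPKM in fen1 and 1.37 FPKM in TWT, and there the H3K4me3 peak at the start met the H3K27me3 peak of the gene body over 107 bp. DHAR1, a dehydroascorbate reductase gene at 318 FPKM in fen1 and 217 FPKM in TWT, carried an H3K4me3 peak of score 3100, and that peak met the member over 72 bp, 20 of them on the gene.

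Other large rises had both marks on the body. AT1G12030, a gene of the DUF506 family, had 8.85 FPKM in fen1 and 0.89 FPKM in TWT (log2 3.31, q = 0.00173 in the authors' deposited table), and its member of 989 bp lay wholly within an H3K4me3 peak over the start. AT2G30766, for which the authors' short description is blank, had 283 FPKM in fen1 and 36.9 FPKM in TWT (log2 2.94, q = 0.00173 in the authors' deposited table). Of its body 99.4% lay under both marks. PYD4, a predicted beta-alanine aminotransferase gene, had 9.99 FPKM in fen1 and 1.92 FPKM in TWT (log2 2.38, q = 0.00173 in the authors' deposited table). The berberine-type oxidase gene AT1G30700 had 42.7 FPKM in fen1 and 8.86 FPKM in TWT, with a log2 of 2.27 by the authors' deposited table. Its near neighbour AT1G30720, of the same family, had 5.96 FPKM in fen1 and 3.74 FPKM in TWT and its own member. NIG1, a transcription factor gene of salt signalling, had 2.04 FPKM in fen1 and 0.51 FPKM in TWT, and 99.2% of it lay under both marks. Its H3K4me3 peak scored 59.8, near the lowest score of that list (50.1). KTI1, a Kunitz trypsin inhibitor gene of defence, had 72.3 FPKM in fen1 and 20.3 FPKM in TWT, with both marks on 71.8% of the gene.

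The falls were led by the glycine-rich protein gene GRP-3 (AT2G05520, chromosome 2, 2026162 to 2027117), at 35.6 FPKM in fen1 and 2033 FPKM in TWT (log2 −5.83, q = 0.00173 in the authors' deposited table). Its member of 1006 bp lay inside an H3K4me3 peak and covered 85.8% of the gene, with scores of 108 for H3K27me3 and 503 for H3K4me3. GRP-3 has similar genes nearby, and the division of reads among them is unstated, so its level is uncertain. AT4G06534, of unknown function, had 0.25 FPKM in fen1 and 2.24 FPKM in TWT (log2 −3.14, q = 0.0433 in the authors' deposited table). AT2G25450, a 2-oxoglutarate-dependent oxygenase gene, had 8.47 FPKM in fen1 and 42.3 FPKM in TWT (log2 −2.32, q = 0.00173 in the authors' deposited table), with 90.7% of its body under both marks. The 3 largest falls thus all had at least 78.8% of the body under both marks. For genes this low in one genotype the size of the change depended on a pseudocount: on the log2(FPKM + 1) scale it was 2.70 for CRU3, 1.73 for AT1G14550, 1.01 for NIG1 and −1.37 for AT4G06534.

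The next 7 falls were smaller, with log2 fold changes from −1.11 to −0.77 in the authors' deposited table. They were AT1G64590 (2.44 FPKM in fen1 and 5.29 FPKM in TWT), AT2G15020 (9.27 FPKM in fen1 and 19.3 FPKM in TWT) and FLA13, a fasciclin-like arabinogalactan protein gene (30.5 FPKM in fen1 and 59.9 FPKM in TWT). They further held BIA1, a brassinosteroid-inactivating acyltransferase gene (1.63 FPKM in fen1 and 3.02 FPKM in TWT), and HRS1, a MYB-like regulator of the response to phosphate (13.1 FPKM in fen1 and 22.7 FPKM in TWT). The others were AT1G65180, of the C1 domain family (2.37 FPKM in fen1 and 4.07 FPKM in TWT), and KCS12, an enzyme of very long chain fatty acid synthesis (6.60 FPKM in fen1 and 11.3 FPKM in TWT).

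The 5 most abundant genes under members in TWT all fell. AT5G42530, of unknown function, had 2986 FPKM in fen1 and 4195 FPKM in TWT (log2 −0.49, q = 0.0160 in the authors' deposited table), and its whole body of 656 bp lay under both marks. PRP4, a proline-rich cell wall protein gene, had 1168 FPKM in fen1 and 1762 FPKM in TWT (log2 −0.59, q = 0.00322 in the authors' deposited table), with 90.7% under both. AT2G25510 had 758 FPKM in fen1 and 1021 FPKM in TWT and was wholly under both marks. The GDSL lipase gene AT3G16370 had 316 FPKM in fen1 and 446 FPKM in TWT, with 83.6% under both, and GRP-3 was the fifth. The H3K27me3 scores of the members on these 5 genes ran from 108 for GRP-3 to 417 for PRP4, within the range of members in general. Besides AT5G42530 and AT2G25510, the shared stretch covered all of AT1G78450 (73.7 FPKM in fen1 and 104 FPKM in TWT), AT3G47480 (22.2 FPKM in fen1 and 11.9 FPKM in TWT) and UNE11, a pectin methylesterase inhibitor gene (20.0 FPKM in fen1 and 10.3 FPKM in TWT). XTH6, a xyloglucan endotransglucosylase gene, was the sixth such gene, at 43.7 FPKM in fen1 and 63.4 FPKM in TWT. The H3K4me3 scores were low for their list at AT1G78450 (76.5), AT3G47480 (79.8) and XTH6 (83.5), and 1530 at UNE11.

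By the authors' short descriptions, with keywords set after the values were seen, enzymes of oxidation and reduction formed the most numerous class under members. With 136 genes they were also the most numerous class in the whole list, and 11.0% of them touched a member. Over the 8 classes this share ran from 4.76% (kinases and receptors) to 19.0% (lipid and wax), beside 7.27% of all listed genes. Of the 15 oxidation and reduction genes under members 14 were higher in fen1 and AT2G25450 was lower. Of the 136 listed genes of this kind 98 were higher. CYP94B3, which inactivates jasmonoyl-isoleucine, had 2.19 FPKM in fen1 and 0.86 FPKM in TWT, and LAC8, a laccase gene, 15.3 FPKM in fen1 and 9.47 FPKM in TWT. Genes of lipid and wax metabolism leaned the other way, with 2 higher and 6 lower under members and 19 higher and 23 lower in the whole list. Among the lower ones were the adjacent GDSL lipase genes AT1G29660 (125 FPKM in fen1 and 180 FPKM in TWT) and AT1G29670 (104 FPKM in fen1 and 141 FPKM in TWT), each with its own member.

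Of 7 genes under members whose description matched the transcription factor keywords, 5 were higher (WRKY6, LOV1, NAC2, ANAC087 and the Integrase-type DNA-binding gene AT2G33710) and 2 lower (HRS1 and MYB48), beside 34 higher and 21 lower in the list. NIG1 is not among the 7, because its description names it only as a salt-inducible gene. WRKY6, a regulator of senescence and phosphate responses, had 18.5 FPKM in fen1 and 12.1 FPKM in TWT. Transporter genes under members were higher in 4 of 5 cases, beside 25 of 44 in the list. CAX3, a vacuolar calcium exchanger gene, had 14.1 FPKM in fen1 and 6.96 FPKM in TWT, and YSL2, a metal-nicotianamine transporter gene, 25.0 FPKM in fen1 and 15.5 FPKM in TWT. The exception was the ammonium transporter gene AMT1;3, at 29.8 FPKM in fen1 and 40.1 FPKM in TWT. Of 7 cell wall genes under members 4 were higher and 3 lower, beside 45 higher and 25 lower of 70 in the list. The 2 kinase genes went both ways, with EMS1 higher and AT4G18250 lower (2.26 FPKM in fen1 and 3.60 FPKM in TWT).

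The 8 keyword classes, which also held kinase, defence and seed proteins, left out 33 of the 81 genes. The classes overlap, as PER1 counted under oxidation and seed, and OLEO4 and LTPG2 under lipid and seed. LSU1, a gene of the response to low sulfur, had 81.9 FPKM in fen1 and 26.3 FPKM in TWT, and CORI3, of the tyrosine transaminase family, 96.7 FPKM in fen1 and 52.7 FPKM in TWT. PUB22, a U-box ubiquitin ligase gene, had 7.84 FPKM in fen1 and 5.34 FPKM in TWT. FBA5, of the aldolase family, was lower, at 140 FPKM in fen1 and 206 FPKM in TWT. Both marks lay on 91.9% of LSU1 and 93.3% of FBA5. The H3K27me3 score was 52.9 at LSU1, near the lowest of that list, and 123 at FBA5.

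The chitinase genes CHI (55.3 FPKM in fen1 and 20.5 FPKM in TWT) and HCHIB (56.0 FPKM in fen1 and 31.3 FPKM in TWT) were both higher, with 94.3% and 89.8% of the body under both marks. With KTI1 they made up the 3 defence protein genes under members, all higher, beside 26 higher of 36 in the list. The H3K4me3 peaks on HCHIB scored 78.3 and 67.05, low for their list, and the one on CHI 193. Of seed genes, CRU3, PER1 and the oleosin gene OLEO4 (7.87 FPKM in fen1 and 4.24 FPKM in TWT) were higher, and LTPG2, which matched through its family name, was lower (96.0 FPKM in fen1 and 129 FPKM in TWT), beside 35 higher and 12 lower of 47 in the list. HDA18, a histone deacetylase gene, had 5.20 FPKM in fen1 and 2.22 FPKM in TWT, and its whole body lay under H3K27me3 with H3K4me3 over 34.7% of it, away from the start.

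Of 7 gene lists, 5 had no member-touching gene among those called. In the Polycomb target list 2 genes were called higher and 1 lower of 31 matched, in the DNA damage list 12 higher and none lower of 22, and in the iron deficiency list 11 higher and 2 lower of 18. The salicylic acid and defence list had 6 higher and 4 lower of 20, and the circadian and light list no called gene of 21; values of uncalled genes were not analysed here. None of these called genes touched a member, which holds for the matched symbols alone (18 of 23 in the iron deficiency list). The metal-nicotianamine transporter gene YSL2 and AT2G30766, which both touched members, were not among them. Of the auxin list 1 gene was called higher and 5 lower of 27, and the lower gene IAA7, a repressor of auxin responses, touched 2 members (159 FPKM in fen1 and 231 FPKM in TWT, q = 0.00593 in the authors' deposited table). Of the cold and dehydration list 2 were called higher and 3 lower of 15, and LTI30, a dehydrin gene, touched a member (61.9 FPKM in fen1 and 30.2 FPKM in TWT, log2 1.04, q = 0.00173 in the authors' deposited table). Called shares of all tested genes were 3.4% higher and 2.14% lower. Of all 1114 listed genes 81 touched a member (7.27%), so few such genes would be looked for in lists this short. The absence of members from 5 of the lists is thus not read as a result.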

How the data were processed

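Peak lists of TWT H3K27me3, H3K4me3 and H3K9me2 (1 library each) and 1 RNA table of fen1 against TWT (2 libraries each) were used. The peak score is deposited by the authors; peak names point to MACS, with version, control and settings not given in the sources used here. Since the RNA table that the authors deposited has a Cuffdiff layout, its 2 level columns were read as FPKM that the authors combined per genotype, although the header names no unit and calls the TWT column WT. The log2 fold change, test statistic (a score), p-value and q-value are the authors' deposited ones, per the file headers; the largest gap between these log2 values and the FPKM ratios was 1.17e-05. The submitters' processing notes name Bowtie 0.12.9, TopHat2 2.1.1, Cuffdiff 2.1.1, SAMtools and TAIR10, without roles; strand handling is not given. Whether the RNA libraries came from separate cultures is not said, so the spread behind the p-values may be technical.

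Positions are 1-based TAIR10. Overlaps were computed in Python 3.11.15 with pandas 2.3.3, with the overlap code tested on simulated data; intervals are exact Clopper-Pearson at 95% (scipy 1.17.1) and cover counting error only. A gene touched a member at 1 bp of its body. Symbols came from a TAIR10.1 reference table (1113 of 1114 identifiers matched), used for names and gene order alone. The genes named are the 10 largest rises and 10 largest falls with at least 1 FPKM in one genotype, list members, genes at the 5 most extreme members, the 5 most covered and the 5 most abundant. A few more (the sixth wholly covered gene and examples from classes and edges) were chosen after their values were seen. Members and lists were chosen with earlier results of these data known, and the keyword classes were revised, and the classes of body cover set, after values were seen. Keywords were searched in the authors' short descriptions. No sequence is printed, and the planned motif search was not made, because no genome or promoter table was used here. Alternatives covered the overlap, the score, the gene overlap, q, fold, level and pseudocount.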

Additional observations from a re-analysis of the deposited data

Results flagged for a closer look

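The H3K27me3 peaks on the chloroplast chromosome lie outside the comparisons above and are given because that DNA carries no histones. Of 38 such peaks 28 overlapped an H3K4me3 peak, with a median of 906 bp shared. The H3K4me3 list held 36 peaks on the chloroplast and the H3K9me2 list 6. With this many peaks on one small chromosome some overlap would arise in any case, so the count of 28 is a description. The input libraries were not used, and the level of such peaks in input chromatin was not analysed here.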

How the results depend on the processing

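The number of members was 808 at 1 bp of overlap. It was 492 where the shared bases had to make up at least 50% of the H3K27me3 peak, 455 with both scores at least 100 and 83 with both scores at or above their list's median, since each setting keeps fewer peaks. With at least 200 bp shared, the median shared length was 951 bp and the median width 1324 bp; with both scores at least 100 they were 865 bp and 1673 bp. The 52 higher and 29 lower genes became 23 and 5 with at least 2-fold changes, which put the higher share at 82.1%. Over all listed genes the same setting left 320 higher and 127 lower, so the higher share rose there too. The lower genes under members were 17 at a q under 0.01. All other alternatives run, 22 of 33, stayed within 1.5 times the count or within the interval of the main value, and those on member scores, H3K9me2 and H3K9me2-rich bins were chosen after seeing the data. With log2(FPKM + 1), all 29 named genes kept their direction, and CRU3 (2.70), AT4G06534 (−1.37) and AT1G14550 (1.73) moved most. No paired analysis was possible because the table holds 1 value per genotype, and no library could be left out for the same reason. Without counts or depth, the precision of low FPKM values is unknown.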
